A study of Gallus gallus with 20 samples.

Results

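The expression of 9 genes for cell adhesion molecules, NCAM1 and the cadherins CDH1, CDH2, CDH4, CDH6, CDH7, CDH11, CDH13 and CDH20, was followed in developing chicken skin. They were picked by symbol from the 13009 genes that the array annotation names, and all 9 were present. A total of 19 probe sets carry their symbols, and each gene is represented by the one with the highest mean over all arrays. The RNA came from white leghorn embryos and was hybridised to 20 chicken genome arrays in 8 groups. In the group names, s and f stand for metatarsal scale-forming and dorsal feather-forming skin, and m and e for mesenchyme and epithelium. Differentiated scale skin at embryonic day 11 gave E11sm and E11se, and undifferentiated scale skin at day 9 gave E9sm and E9se. Differentiated feather skin at day 9 gave E9fm and E9fe, and undifferentiated feather skin at day 7 gave E7fm and E7fe. The differentiated groups hold 3 arrays each and the undifferentiated groups 2 each. All skins were split into epidermis and dermis with EDTA on ice, the labels name no further treatment, and every sample is labelled as pooled. The number of embryos in a pool is not given in the sources used here, and by their titles the arrays within a group are biological replicates. Scale skin of a given stage is older than feather skin of that stage, so that region and age cannot be told apart in those comparisons.

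Classical cadherins join cells of like kind by binding the same cadherin on the neighbouring cell in the presence of calcium, and their cytoplasmic tails hold the actin cytoskeleton through beta-catenin and alpha-catenin. CDH1 (E-cadherin, first described in chicken as L-CAM), CDH2 (N-cadherin) and CDH4 (R-cadherin) are of type I, and CDH6, CDH7, CDH11 and CDH20 are of type II. CDH13 (T-cadherin) has the cadherin repeats but no cytoplasmic tail and is held in the membrane by a lipid anchor. NCAM1 belongs to the immunoglobulin superfamily and works without calcium. In skin, E-cadherin is the main cadherin of the epidermis, and NCAM marks the dermal condensations under feather buds.

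Levels are given in log2 units, as the authors computed them with the robust multi-array average (RMA), and a difference of 1 stands for a doubling. A level under 6 is called dim here, and the array medians lay between 5.62 and 5.69. The separation of the compartments was checked with marker lists. The mean level of 10 epithelial markers was 5.78 to 7.95 on the mesenchyme arrays and 9.76 to 10.78 on the epithelium arrays. The mean level of 12 mesenchymal markers was 12.39 to 12.75 on the mesenchyme arrays and 8.29 to 10.78 on the epithelium arrays. Not every marker separated the compartments. The mean of DCN was 13.24 in E7fe and 13.05 in E7fm, whereas every other marker of its list was higher in E7fm. On the epithelial list the dim KRT75 was not lower in mesenchyme in any skin, with means of 4.95 in E9sm and 4.47 in E9se. A pair of arrays went against its label. On the array labelled E9fm replicate 1, the hindlimb gene TBX4 was at 10.39 and HOXC9 at 5.82, against 4.13 to 5.35 and 9.56 to 9.82 on the other feather mesenchyme arrays and 10.11 to 11.16 and 4.94 to 5.49 on the scale mesenchyme arrays. On the array labelled E9fe replicate 1, SP8 was at 10.16, against 3.61 to 4.01 on the other feather epithelium arrays and 9.50 to 10.15 on the scale epithelium arrays. The same pair had the highest marker level of the other compartment, 7.95 for the epithelial list on E9fm replicate 1 and 10.78 for the mesenchymal list on E9fe replicate 1. Results are therefore given with all arrays and, where it alters a call, without this pair, which are called the 2 doubted arrays.

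Mesenchyme was first set against epithelium of the same skin. NCAM1, CDH7 and CDH11 were higher in mesenchyme, and CDH1 was lower, in all 4 skins. CDH13 was higher in mesenchyme of both scale skins but did not pass in feather skin, and CDH4 was lower in E7fm than in E7fe and higher in E9fm and E11sm than in the matching epithelium. A difference was called where limma's p, adjusted over all 38439 probe sets of a comparison, was under 0.05. By this rule 6 of the 9 genes passed in E7fm against E7fe, where 12.4% of all probe sets passed. In E9fm against E9fe 5 passed (17% of all probe sets), in E9sm against E9se 5 (13.8%) and in E11sm against E11se 6 (18.8%). Without the 2 doubted arrays the counts were 6, 6, 6 and 6, with 14.2%, 17.6%, 16.1% and 21.1% of all probe sets. The median difference of the 9 genes was 0.71, 1.19, 0.92 and 1.48 in these 4 comparisons, beside medians of all probe sets between -0.06 and 0.01. In pooled tissue, fewer cells of a type and less RNA per cell cannot be told apart.

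**Figure D1:**
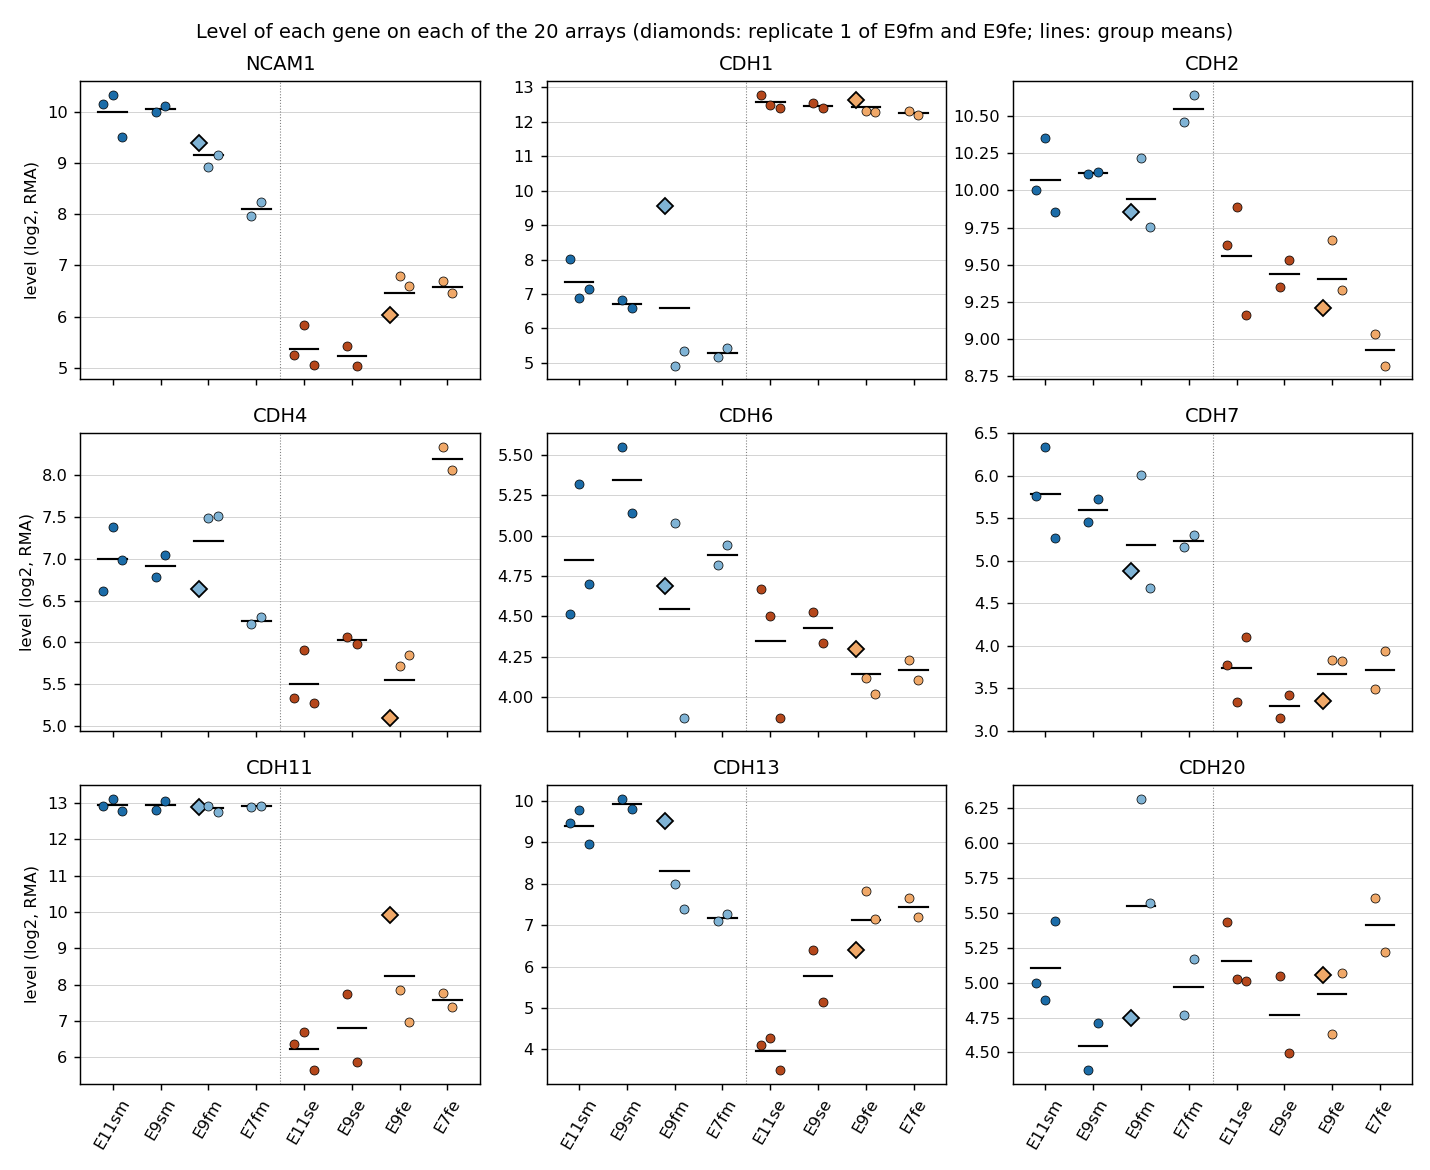
The level (log2, RMA) of each gene on each of the 20 arrays, with the 4 mesenchyme groups left of the dotted line and the 4 epithelium groups right of it, lines at the group means and diamonds for replicate 1 of E9fm and E9fe. NCAM1, CDH7 and CDH11 separate the compartments upward and CDH1 downward, whereas CDH4 is highest on the 2 E7fe arrays, at 8.34 and 8.05. The scale of the vertical axis differs between panels.

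CDH1, the epidermal cadherin, was at 8.01, 6.87 and 7.14 in E11sm, 6.81 and 6.59 in E9sm, 9.54, 4.92 and 5.34 in E9fm, and 5.17 and 5.44 in E7fm. Its epithelial levels were 12.78, 12.49 and 12.39 in E11se, 12.53 and 12.39 in E9se, 12.63, 12.32 and 12.29 in E9fe, and 12.31 and 12.19 in E7fe. The highest mesenchymal value, that of the doubted E9fm array, lay below every epithelial value, and among the epithelial groups E7fe lay below E9se and E11se, whereas all other pairs overlapped. CDH1 was lower by 5.21 ± 0.78 (SE) in E11sm than in E11se (adjusted p = 0.000102, 37.1-fold). It was lower by 5.76 ± 0.95 in E9sm than in E9se (adjusted p = 0.000422). In feather skin the difference was -5.81 ± 0.78 for E9fm against E9fe (adjusted p = 4.52e-05) and -6.95 ± 0.95 for E7fm against E7fe (adjusted p = 6.96e-05, 123-fold). Without the 2 doubted arrays the SD of CDH1 within groups was 0.31, against 1.08 with all arrays, and the difference of E9fm from E9fe was -7.18 ± 0.29 (adjusted p = 4.25e-10). Across the mesenchyme arrays CDH1 was high where the epithelial markers were high. The epithelial list stood at 7.22, 6.56 and 7.10 in E11sm, 6.47 and 6.59 in E9sm, 7.95, 5.84 and 6.18 in E9fm, and 5.78 and 5.81 in E7fm. The count of its 10 genes that were lower in mesenchyme was 8 in each skin, not necessarily the same 8. Of all probe sets 6.07%, 8.55%, 7.05% and 9.4% were lower in E7 feather, E9 feather, E9 scale and E11 scale skin. EPCAM was lower by 5.71 to 7.48. The part of epithelial RNA in the CDH1 level of mesenchyme was not tested.

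CDH2, the neural and mesenchymal cadherin, differed less between the compartments and was well above the dim limit in every group. In mesenchyme its levels were 10.01, 10.35 and 9.85 in E11sm, 10.11 and 10.13 in E9sm, 9.85, 10.22 and 9.76 in E9fm, and 10.46 and 10.64 in E7fm. In epithelium they were 9.63, 9.89 and 9.16 in E11se, 9.35 and 9.53 in E9se, 9.21, 9.67 and 9.33 in E9fe, and 9.03 and 8.82 in E7fe. E7fm was the highest group and E7fe the lowest, both without overlap with the next group, and the 6 groups between them overlapped from neighbour to neighbour in mean order. CDH2 was 3.08-fold higher in E7fm than in E7fe (1.62 ± 0.24, adjusted p = 0.000146). In the other skins the differences of 0.51 to 0.68 did not pass. With the replicate number as a block all 3 passed, at 0.54 in E9fm against E9fe (adjusted p = 0.0166), 0.68 in E9sm against E9se (adjusted p = 0.0169) and 0.51 in E11sm against E11se (adjusted p = 0.0206).

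CDH4, the retinal cadherin, was lower in mesenchyme than in epithelium of the earlier feather skin and higher in that of the later one. It was at 6.61, 7.38 and 6.98 in E11sm, 6.78 and 7.04 in E9sm, 6.64, 7.49 and 7.51 in E9fm, and 6.21 and 6.30 in E7fm. Its epithelial levels were 5.34, 5.90 and 5.28 in E11se, 6.06 and 5.99 in E9se, 5.10, 5.72 and 5.85 in E9fe, and 8.34 and 8.05 in E7fe. The 2 E7fe arrays lay above all others, and the remaining epithelium arrays lay below every mesenchyme array. CDH4 was lower in E7fm than in E7fe by 1.94 ± 0.32 (adjusted p = 0.00047) and higher in E9fm than in E9fe by 1.66 ± 0.26 (adjusted p = 0.000258). The difference of these differences was 3.59 ± 0.42 (adjusted p = 0.000459, and 3.65 ± 0.34 with adjusted p = 4.42e-05 without the 2 doubted arrays), a test that was added after the values had been seen and in which 1 of the 9 genes and 0.411% of all probe sets passed, or 2.62% without the 2 doubted arrays. A like test between the scale stages, also added after the values had been seen, gave 0.60 ± 0.42 for CDH4 (adjusted p = 0.999). In that test 0 of the 9 genes passed (0.0104% of all probe sets), and 0 without the 2 doubted arrays (0.317%). CDH4 was also higher in E11sm than in E11se (1.48 ± 0.26, adjusted p = 0.000536). In E9sm against E9se the difference of 0.89 ± 0.32 did not pass with all arrays (adjusted p = 0.0873) and passed without the 2 doubted arrays (adjusted p = 0.0204) and with the replicate block (adjusted p = 0.0456).

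The type II cadherin CDH11, known from mesenchyme and bone-forming cells, varied little within mesenchyme on its chosen probe set (12.75 to 13.12). On its second probe set it ranged from 10.56 to 12.14 there. On the chosen one it was at 12.92, 13.12 and 12.79 in E11sm, 12.81 and 13.06 in E9sm, 12.90, 12.92 and 12.75 in E9fm, and 12.90 and 12.92 in E7fm. Its epithelial levels were lower and more scattered, at 6.35, 6.71 and 5.65 in E11se, 7.73 and 5.87 in E9se, 9.91, 7.85 and 6.97 in E9fe, and 7.76 and 7.39 in E7fe. No epithelium array reached the mesenchyme arrays. The differences were 6.71 ± 0.55 for E11sm against E11se (adjusted p = 1.64e-07, 104-fold), 6.14 ± 0.68 for E9sm against E9se (adjusted p = 7.75e-06), 4.61 ± 0.55 for E9fm against E9fe (adjusted p = 1.5e-05) and 5.33 ± 0.68 for E7fm against E7fe (adjusted p = 3.3e-05). Without the 2 doubted arrays the E9 feather difference was 5.42 ± 0.47 (adjusted p = 7.48e-07). The epithelial value of 9.91 belongs to the doubted E9fe array, where the mesenchymal list was at 10.78. On the other epithelium arrays that list lay between 8.29 and 9.64, and its part in the CDH11 level was not tested.

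**Figure D2:**
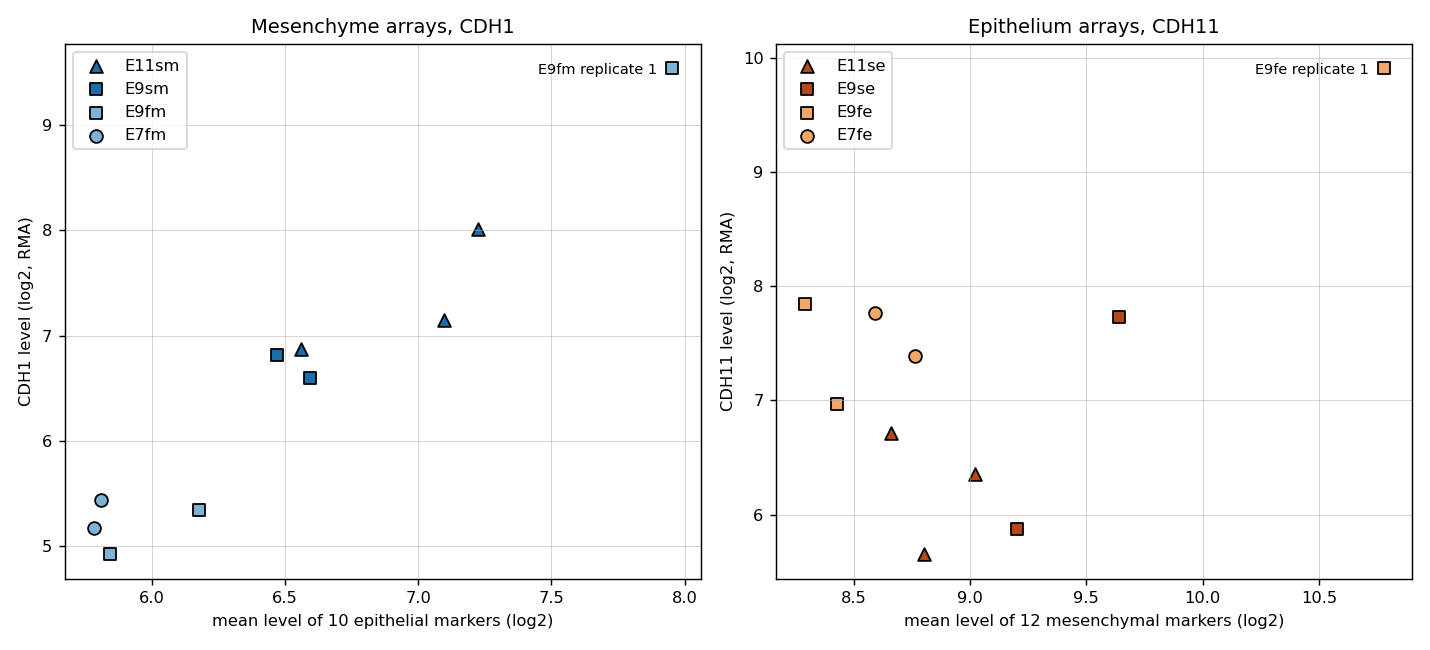
Left, CDH1 on the 10 mesenchyme arrays against the mean level of 10 epithelial markers; right, CDH11 on the 10 epithelium arrays against the mean level of 12 mesenchymal markers, all in log2 units and with 1 point per array. E9fm replicate 1 (7.95, 9.54) and E9fe replicate 1 (10.78, 9.91) lie farthest to the upper right.

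The remaining type II cadherins were dim, with no group mean of 6 or more. CDH7, which migrating neural crest cells carry in the chick embryo, was at 5.76, 6.34 and 5.26 in E11sm, 5.46 and 5.73 in E9sm, 4.88, 6.01 and 4.68 in E9fm, and 5.16 and 5.30 in E7fm. On the 10 epithelium arrays it ranged from 3.15 to 4.10, with no overlap. CDH7 was higher in mesenchyme by 2.05 ± 0.32 in E11 scale skin (adjusted p = 0.000176), 2.30 ± 0.39 in E9 scale skin (adjusted p = 0.000586), 1.52 ± 0.32 in E9 feather skin (adjusted p = 0.00299) and 1.51 ± 0.39 in E7 feather skin (adjusted p = 0.0159). With some single arrays left out the E7 difference stayed positive, but its call was not kept. It was lost without E7fe replicate 1 (1.29, adjusted p = 0.148), E7fm replicate 1 (1.59, adjusted p = 0.0695) or E7fm replicate 2 (1.44, adjusted p = 0.107). CDH6, a cadherin of early neural crest and of kidney, ranged from 3.87 to 5.55 in mesenchyme and 3.87 to 4.67 in epithelium and passed in none of the 4 comparisons, with 0.92 in E9sm against E9se as its highest difference. With the replicate block that difference passed (adjusted p = 0.0367). CDH20 ranged from 4.37 to 6.32 in mesenchyme and 4.50 to 5.61 in epithelium. It passed in E9 feather skin when the 2 doubted arrays were left out (1.09 ± 0.30, adjusted p = 0.0181), against 0.63 ± 0.31 with all arrays (adjusted p = 0.21). Leaving out E9fm replicate 1 alone gave 1.03 (adjusted p = 0.0135). CDH20 was at 4.75, 6.32 and 5.57 on the 3 E9fm arrays. The mean of 11 skeletal muscle markers was 5.21, 6.43 and 6.31 on these arrays and 4.65 to 5.11 on all arrays outside E9fm, and its part in the CDH20 level was not tested.

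CDH13, the cadherin with a lipid anchor, separated the compartments in scale skin far more than in feather skin. It was at 9.47, 9.78 and 8.97 in E11sm against 4.11, 4.29 and 3.50 in E11se, and at 10.06 and 9.80 in E9sm against 6.41 and 5.13 in E9se. In feather skin the levels were 9.53, 8.00 and 7.39 in E9fm against 6.39, 7.81 and 7.14 in E9fe, and 7.10 and 7.26 in E7fm against 7.67 and 7.20 in E7fe. The scale groups lay far apart and the feather groups overlapped. CDH13 was higher by 5.44 ± 0.47 in E11sm (adjusted p = 2.95e-07, 43.4-fold) and by 4.15 ± 0.58 in E9sm (adjusted p = 8.45e-05, 17.8-fold). The differences of 1.19 in E9 feather skin and -0.26 in E7 feather skin did not pass. Without the 2 doubted arrays the E9 feather difference was 0.22 ± 0.40 (adjusted p = 0.852).

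NCAM1 was at 10.14, 10.33 and 9.51 in E11sm, 9.99 and 10.11 in E9sm, 9.39, 8.92 and 9.15 in E9fm, and 7.97 and 8.23 in E7fm. Its epithelial levels were 5.25, 5.84 and 5.05 in E11se, 5.43 and 5.04 in E9se, 6.03, 6.79 and 6.60 in E9fe, and 6.70 and 6.46 in E7fe. No array of mesenchyme overlapped with epithelium, and the 4 pairs lay farther apart in scale skin. NCAM1 was higher in E11sm than in E11se by 4.61 ± 0.25 (adjusted p = 2.58e-09, 24.5-fold) and in E9sm than in E9se by 4.82 ± 0.31 (adjusted p = 5.03e-08, 28.2-fold). The differences were 2.68 ± 0.25 for E9fm against E9fe (adjusted p = 1.05e-06) and 1.52 ± 0.31 for E7fm against E7fe (adjusted p = 0.00249). In the mean of all its probe sets, NCAM1 differed by 0.50 between E7fm and E7fe and did not pass (adjusted p = 0.0975).

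**Figure D3:**
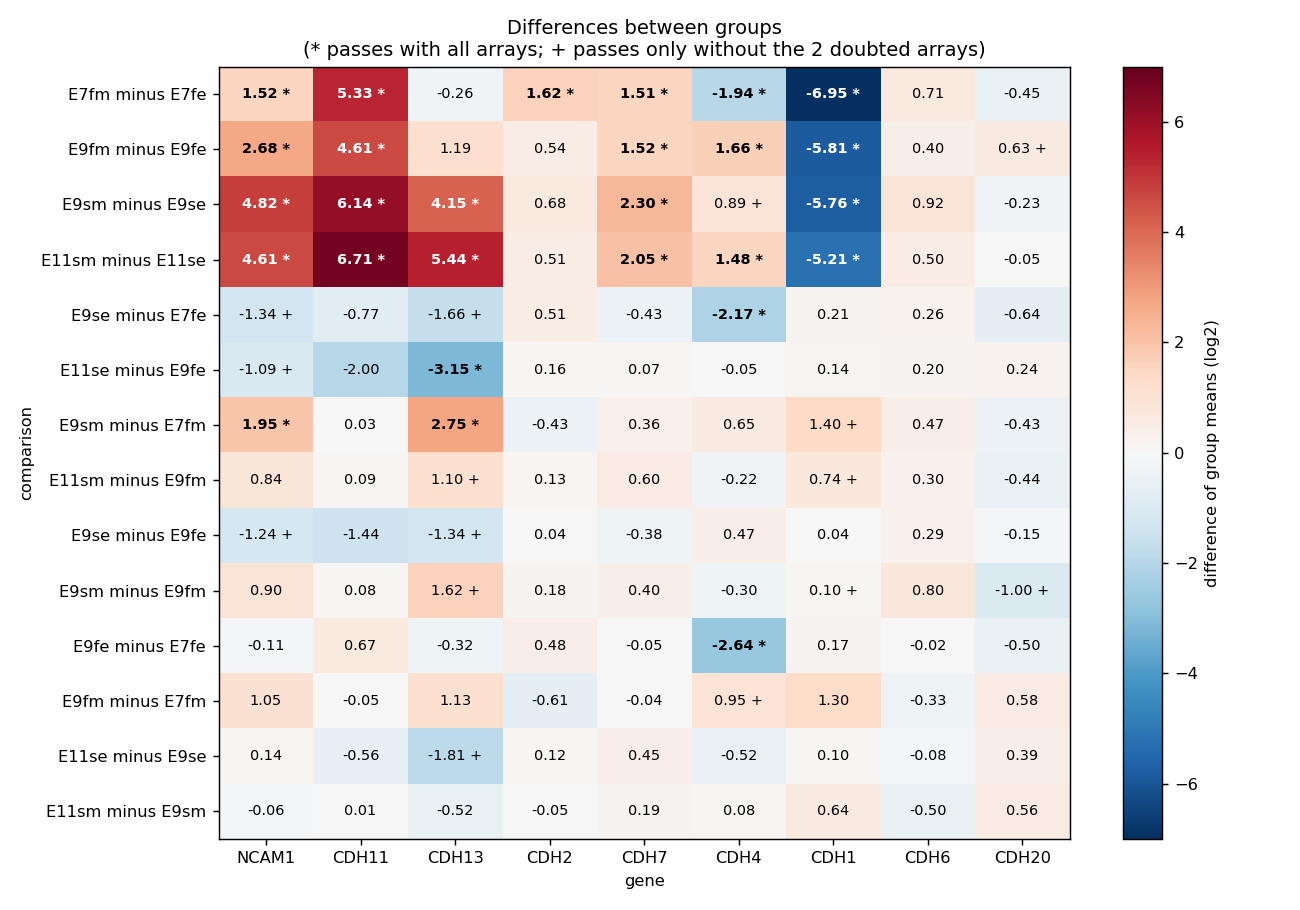
The difference in log2 units of each gene (columns) in each of the 14 comparisons (rows), the group named first minus the group named second. An asterisk marks a difference that passed with all arrays. A plus sign marks one that passed only when replicate 1 of E9fm and of E9fe, the 2 doubted arrays, were left out. The rows that set mesenchyme against epithelium hold the largest values, from -6.95 for CDH1 to 6.71 for CDH11.

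Scale skin was then set against feather skin of the same stage. In undifferentiated skin NCAM1 and CDH13 were higher in E9sm than in E7fm, CDH4 was lower in E9se than in E7fe, and no other gene passed. In differentiated skin CDH13 was lower in E11se than in E9fe, and none passed between E11sm and E9fm. The counts were 2 of 9 for E9sm against E7fm (0.788% of all probe sets), 1 for E9se against E7fe (0.817%), 1 for E11se against E9fe (0.312%) and 0 for E11sm against E9fm (0.0052%, or 2 probe sets). In the last comparison 2 of the 9 had an unadjusted p under 0.05, as had 1810 of all 38439 probe sets. Without the 2 doubted arrays the counts were 3, 3, 2 and 2, with 2.01%, 1.98%, 2.65% and 2.31% of all probe sets.

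NCAM1, given above for each array, was higher in E9sm than in E7fm by 1.95 ± 0.31 (adjusted p = 0.00601, 3.87-fold) with no overlap. The call was lost without E7fm replicate 1 (1.82, adjusted p = 0.0819), E7fm replicate 2 (2.08, adjusted p = 0.0581) or E9sm replicate 2 (1.89, adjusted p = 0.0595), each of which leaves a lone array in its group. In epithelium the differences of NCAM1 were negative and did not pass with all arrays. They were -1.34 ± 0.31 for E9se against E7fe (adjusted p = 0.0569, and 0.02 without the 2 doubted arrays) and -1.09 ± 0.25 for E11se against E9fe (adjusted p = 0.0989). The E11se difference was -1.31 ± 0.26 without the 2 doubted arrays (adjusted p = 0.0107) and -1.31 without E9fe replicate 1 alone (adjusted p = 0.0128). Every scale epithelium array, at 5.04 to 5.84, lay below every feather epithelium array, at 6.03 to 6.79. The scale minus feather difference of NCAM1 was higher in mesenchyme than in epithelium by 3.29 ± 0.44 in undifferentiated skin (adjusted p = 0.00174). In differentiated skin it was higher by 1.93 ± 0.36 (adjusted p = 0.0603, and 2.27 ± 0.36 with adjusted p = 0.00268 without the 2 doubted arrays). It passed without E9fe replicate 1 (2.15, adjusted p = 0.00573), E9fm replicate 1 (2.05, adjusted p = 0.011), E11se replicate 2 (2.16, adjusted p = 0.0341) or E11sm replicate 3 (2.17, adjusted p = 0.0476). For the undifferentiated skins 3 of the 9 genes passed this test of the compartments (0.492% of all probe sets, and 1.68% without the doubted arrays). For the differentiated skins 1 passed (0.0702%), or 3 without the doubted arrays (2.27%).

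CDH13 had differences of the same signs. It was higher in E9sm than in E7fm by 2.75 ± 0.58 (adjusted p = 0.036, 6.72-fold), and the groups did not overlap. This call was lost without E7fm replicate 1 (2.67, adjusted p = 0.244), E7fm replicate 2 (2.83, adjusted p = 0.284), E9sm replicate 1 (2.62, adjusted p = 0.206) or E9sm replicate 2 (2.88, adjusted p = 0.157), and without the 2 doubted arrays its adjusted p was 0.00117. In E11sm against E9fm the difference was 1.10 ± 0.47 (adjusted p = 0.967) and, without the 2 doubted arrays, 1.71 ± 0.36 (adjusted p = 0.0198). Without E9fm replicate 1 alone it was 1.71 (adjusted p = 0.0467). In epithelium CDH13 was lower by 3.15 ± 0.47 in E11se than in E9fe (adjusted p = 0.00693, 8.89-fold), and the E11se arrays, at 3.50 to 4.29, lay below all others. That call was lost without E9fe replicate 2 (-2.80, adjusted p = 0.0555) and in a fit to these 2 groups alone (adjusted p = 0.103). In E9se against E7fe the difference of -1.66 ± 0.58 did not pass (adjusted p = 0.364), but without the 2 doubted arrays it did (adjusted p = 0.0471). The scale minus feather difference was higher in mesenchyme than in epithelium by 4.41 ± 0.82 in undifferentiated skin (adjusted p = 0.0238) and by 4.25 ± 0.67 in differentiated skin (adjusted p = 0.0226). Without the 2 doubted arrays these were 4.41 ± 0.56 (adjusted p = 0.000658) and 5.22 ± 0.52 (adjusted p = 4.58e-05). The calls made with all arrays were not kept when single arrays were left out, although the differences stayed positive. The undifferentiated one was lost on leaving out any one of its arrays but E9se replicate 1 (3.78 to 4.65, adjusted p = 0.064 to 0.133). The differentiated one was lost on leaving out replicate 2 or 3 of E9fe or E9fm, replicate 1 or 3 of E11se, or replicate 1 or 2 of E11sm (3.80 to 4.32, adjusted p = 0.0554 to 0.0899).

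CDH4 was lower by 2.17 ± 0.32 in E9se than in E7fe (adjusted p = 0.00382, 4.50-fold). The call was lost without E7fe replicate 1 (-2.03, adjusted p = 0.0733) or E9se replicate 2 (-2.13, adjusted p = 0.056). Between E11se and E9fe, both dim at means of 5.51 and 5.56, the difference was -0.05. The 2 scale minus feather differences differed by 2.12 ± 0.42 (adjusted p = 0.0672, and 1.89 ± 0.33 with adjusted p = 0.0148 without the 2 doubted arrays). With the replicate number as a block this difference passed (adjusted p = 0.0291). No gene passed this test of the stages in epithelium with all arrays (0.127% of all probe sets) and CDH4 alone without the doubted ones (0.619%), and in mesenchyme none passed in either fit (0.0442% and 0.38%). In mesenchyme CDH4 differed by 0.65 between E9sm and E7fm and by -0.22 between E11sm and E9fm, and neither passed. In undifferentiated skin the scale minus feather difference of CDH4 was higher in mesenchyme than in epithelium by 2.82 ± 0.46 (adjusted p = 0.00852). That call was lost without E7fe replicate 1 (2.68, adjusted p = 0.0576), E7fm replicate 1 (2.78, adjusted p = 0.0555) or E9se replicate 2 (2.79, adjusted p = 0.0506).

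Markers of neural crest and nerve were read on the same epithelium arrays. The mean of 10 neural crest, melanoblast and glial markers was 6.49 to 6.84 in E11se and 6.60 and 6.79 in E9se, against 6.29, 8.67 and 8.16 in E9fe and 8.62 and 8.61 in E7fe. In E9se against E7fe 3 of these 10 were lower (SOX10, PAX3 and FOXD3) and none was higher, where 0.463% of all probe sets were lower, and in E11se against E9fe 0 of the 10 passed. With the 2 doubted arrays left out, 7 of the 10 were lower in E9se than in E7fe (1.09% of all probe sets) and 7 in E11se than in E9fe (1.58%). The mean of 8 neuronal markers was 5.61 to 5.72 in E11se and 6.40 and 6.19 in E9se, against 6.03 to 6.26 in E9fe and 6.90 and 7.01 in E7fe, where CDH4 was highest as well. None of the 8 passed in either comparison with all arrays, and 2 (NEFM and NEFL) were lower in both without the doubted arrays. NCAM1, CDH4 and CDH13 are known from neural crest or neural tissue too, and the part of these cells in the epithelial levels was not tested.

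**Figure D4:**
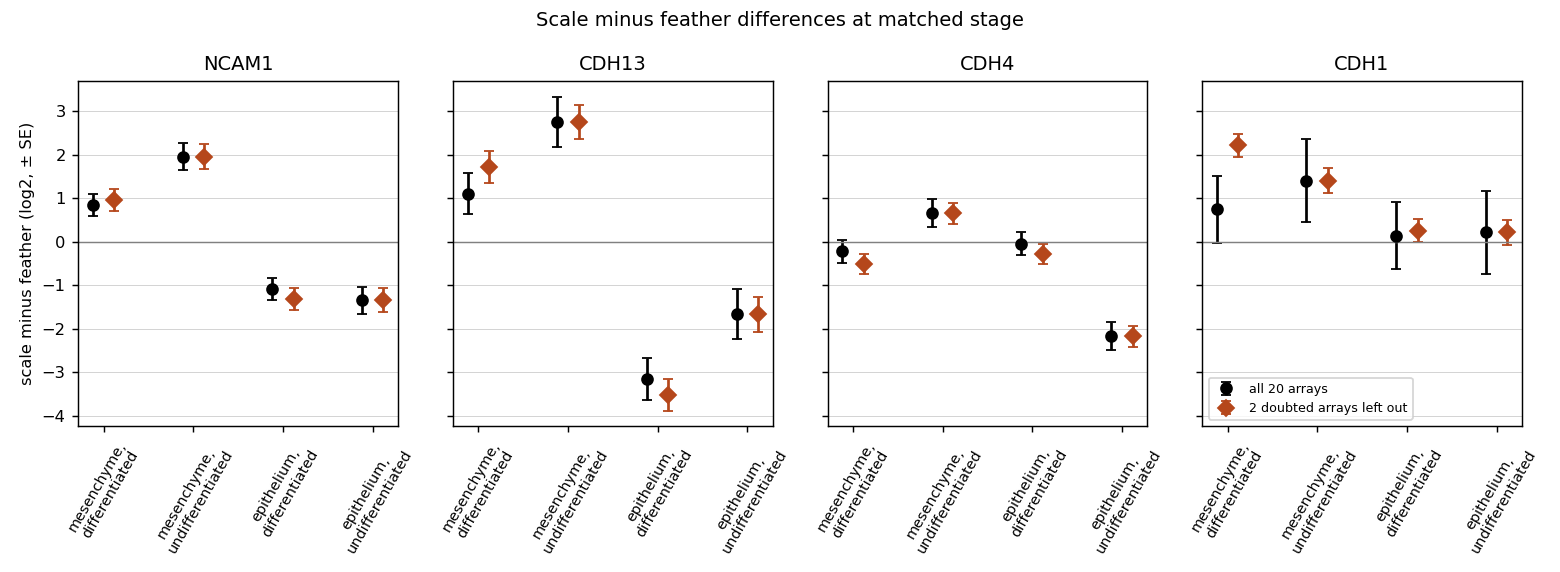
Scale minus feather differences (log2, with SE) of NCAM1, CDH13, CDH4 and CDH1 in each compartment and stage, with all 20 arrays (black circles) and with replicate 1 of E9fm and of E9fe left out (orange diamonds). NCAM1 and CDH13 lie above 0 in mesenchyme and below 0 in epithelium, and CDH4 is lowest in undifferentiated epithelium, at -2.17.

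CDH1 had calls between scale and feather mesenchyme in the fit without the 2 doubted arrays and none with all arrays. Its difference was 1.40 ± 0.95 in E9sm against E7fm with all arrays (adjusted p = 1) and 1.40 ± 0.29 without the doubted arrays (adjusted p = 0.0176). Neither of these groups holds a doubted array, so the difference stayed the same and the SE, estimated over all groups, fell. In E11sm against E9fm the difference was 0.74 ± 0.78 (adjusted p = 1) and 2.21 ± 0.26 (adjusted p = 0.000187). Leaving out E9fm replicate 1 alone gave 2.21 (adjusted p = 0.000178), and leaving out E9fm replicate 2 gave -0.10. The scale minus feather difference of CDH1 was 0.60 ± 1.10 higher in mesenchyme than in epithelium of differentiated skin (adjusted p = 1), and 1.96 ± 0.37 without the doubted arrays (adjusted p = 0.00985) or 2.07 without E9fm replicate 1 alone (adjusted p = 0.00632). The scale mesenchyme arrays that were higher in CDH1 were also higher in the epithelial list, as given above. In epithelium CDH1 differed by 0.21 in E9se against E7fe and by 0.14 in E11se against E9fe, and neither passed. CDH2, CDH6, CDH7 and CDH11 passed in no comparison of scale with feather skin, with or without the doubted arrays. On its chosen probe set the difference of CDH11 in mesenchyme was 0.03 for E9sm against E7fm and 0.09 for E11sm against E9fm. In epithelium it was -2.0 for E11se against E9fe, where the doubted E9fe array stands apart.

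Scale and feather skin were also compared at the same age, day 9, when the scale skin is undifferentiated and the feather skin differentiated. No gene passed in E9sm against E9fm (0% of all probe sets) or in E9se against E9fe (0.0754%). An unadjusted p under 0.05 was found for 4 and 3 of the 9, and for 2508 and 2841 of all 38439 probe sets. Without the 2 doubted arrays 3 passed in mesenchyme (2.87%) and 2 in epithelium (3.19%). CDH13 was higher in E9sm by 2.23 ± 0.40 (adjusted p = 0.00519), CDH1 was higher by 1.57 ± 0.29 (adjusted p = 0.0062), and CDH20 was lower by 1.40 ± 0.30 (adjusted p = 0.0168). With all arrays these differences were 1.62 (adjusted p = 0.515), 0.10 (adjusted p = 0.998) and -1.0 (adjusted p = 0.57). In E9se, NCAM1 was lower by 1.46 ± 0.28 (adjusted p = 0.00801) and CDH13 by 1.71 ± 0.40 (adjusted p = 0.0298), against -1.24 (adjusted p = 0.123) and -1.34 (adjusted p = 0.507) with all arrays. Leaving out E9fm replicate 1 alone gave 2.23 for CDH13 (adjusted p = 0.0125), 1.57 for CDH1 (adjusted p = 0.00647) and -1.40 for CDH20 (adjusted p = 0.0154), and leaving out E9fe replicate 1 alone gave -1.46 for NCAM1 in epithelium (adjusted p = 0.00922). CDH13 did not pass in epithelium without E9fe replicate 1 alone (-1.71, adjusted p = 0.171).

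Between the stages of 1 tissue, CDH4 was the gene that passed with all arrays. It was lower by 2.64 ± 0.29 in E9fe than in E7fe (adjusted p = 0.00027, 6.22-fold), with no overlap between the 3 and the 2 arrays. In a fit to these groups alone its adjusted p was 0.052. It was the 1 of the 9 that passed in that comparison, where 0.637% of all probe sets passed. In E9fm against E7fm 0 passed (0.52%), in E11se against E9se 0 (0.676%) and in E11sm against E9sm 0 (0%). An unadjusted p under 0.05 was found there for 4, 1 and 0 of the 9 genes. It was found for 3465, 3934 and 1041 of all 38439 probe sets. In feather mesenchyme the difference of CDH4 was positive, 0.95 ± 0.29 for E9fm against E7fm (adjusted p = 0.236) and 1.24 ± 0.24 without the 2 doubted arrays (adjusted p = 0.0126). Without E9fm replicate 1 alone the difference was 1.24 (adjusted p = 0.0311). The difference of CDH13 was -1.81 ± 0.53 for E11se against E9se (adjusted p = 0.168), and it passed without the doubted arrays (SE 0.36, adjusted p = 0.02). Counts without the doubted arrays were 1 in E9fe against E7fe (2.22%), 1 in E9fm against E7fm (2.27%), 1 in E11se against E9se (1.69%) and 0 in E11sm against E9sm (0%).

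In the order of the 8 group means, NCAM1 ran from E9sm (10.05) and E11sm (9.99), which overlapped, to E9fm (9.15) and E7fm (8.10), each apart from its neighbours, and then to E7fe (6.58), E9fe (6.47), E11se (5.38) and E9se (5.24). Its feather epithelium groups overlapped with each other and so did its scale epithelium groups. CDH13 ran from E9sm (9.93) and E11sm (9.41), which did not overlap, through E9fm, E7fe, E7fm, E9fe and E9se, each of which overlapped with its neighbours among these, to E11se (3.96) on its own. CDH4 ran from E7fe (8.20) down through E9fm (7.21), E11sm (6.99), E9sm (6.91), E7fm (6.26), E9se (6.03), E9fe (5.56) and E11se (5.51). The 3 upper mesenchyme groups of CDH4 overlapped in turn, as did E9fe with E11se, and the other neighbours did not. The group means spanned 7.25 for CDH1, 6.71 for CDH11, 5.96 for CDH13, 4.82 for NCAM1 and 2.69 for CDH4, and 2.50 or less for CDH2, CDH6, CDH7 and CDH20.

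The partners of the cadherins were read from gene lists. Of all probe sets 6.28%, 8.42%, 6.75% and 9.41% were higher and 6.07%, 8.55%, 7.05% and 9.4% lower in mesenchyme of E7 feather, E9 feather, E9 scale and E11 scale skin. The catenins and other adherens junction partners comprised 14 genes on the array, of which 1, 2, 2 and 2 were higher and 6, 6, 5 and 6 lower in the same order. VCL (vinculin) was higher in all 4, by 0.69 to 1.18, and PKP4 and AFDN (afadin) were lower in all 4, by 1.92 to 2.40 and by 1.69 to 2.44. CTNNA2, the alpha-catenin of neural tissue, had scale minus feather differences of the same signs as NCAM1 and CDH13. Between the compartments it did not follow NCAM1 in E7 feather skin, with means of 9.52 in E7fm and 9.95 in E7fe. CTNNA2 was at 11.90, 11.87 and 12.02 in E11sm, 10.78 and 11.89 in E9sm, 10.69, 10.87 and 11.13 in E9fm and 9.61 and 9.42 in E7fm. In epithelium CTNNA2 was at 7.75, 7.65 and 7.31 in E11se, 8.46 and 8.40 in E9se, 8.75, 9.05 and 9.33 in E9fe and 9.72 and 10.19 in E7fe. It was higher in E9sm than in E7fm by 1.82 ± 0.29 (adjusted p = 0.00672), and lower by 1.52 ± 0.29 in E9se than in E7fe (adjusted p = 0.0192) and by 1.48 ± 0.24 in E11se than in E9fe (adjusted p = 0.011). The scale minus feather difference of CTNNA2 was higher in mesenchyme than in epithelium by 3.34 ± 0.41 in undifferentiated skin (adjusted p = 0.000901). In differentiated skin it was higher by 2.51 ± 0.34 (adjusted p = 0.0122). Both passed without the 2 doubted arrays too (adjusted p = 0.00037 and 0.00116).

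Of 9 desmosome genes, which build the other cadherin-based junction of epithelia, none was higher in mesenchyme and 8, 9, 8 and 8 were lower in the same 4 skins. DSP (desmoplakin), which is also an epithelial marker, was lower by 7.21, 6.50, 6.45 and 5.77 and EVPL (envoplakin) by 5.38, 5.37, 4.91 and 5.37. The desmosomal cadherin DSG4 was the member of this list that passed between stages or regions with all arrays. It was higher by 2.97 ± 0.31 in E9fe than in E7fe (adjusted p = 0.000175), by 1.91 ± 0.31 in E11se than in E9se (adjusted p = 0.00901) and by 2.19 ± 0.34 in E9se than in E7fe (adjusted p = 0.00524). Of 11 other cadherins on the array, 3 were higher in mesenchyme in all 4 skins. These were CDH5, the endothelial cadherin, by 5.84 to 7.46, CDH19, by 1.46 to 2.76, and the dim CDH10, by 0.79 to 0.88. CDH3 (P-cadherin), the basal cadherin of epidermis, was lower in all 4 by 2.10 to 2.77. CDH17 was lower in E9sm than in E9se by 1.25 and higher in E9se than in E7fe by 1.36, at dim levels.

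Of 20 other immunoglobulin adhesion molecules, the family of NCAM1, 4, 6, 4 and 8 were higher and 1, 3, 2 and 3 lower in mesenchyme of the 4 skins. NEGR1 was higher by 4.08 to 5.22, LSAMP by 2.66 to 3.93 and NCAM2, named as the closest relative of NCAM1, by 1.71 to 2.51. ALCAM was lower by 3.89 ± 0.66 in E9sm than in E9se (adjusted p = 0.000529) and by 3.43 ± 0.54 in E11sm than in E11se (adjusted p = 0.00017). Unlike NCAM1, ALCAM was lower in E9sm than in E7fm, by 3.03 ± 0.66 (adjusted p = 0.0418). CNTN4 and NTM were lower in E9se than in E7fe, by 4.19 and 2.05. Of 19 protocadherins and large cadherins, 2, 4, 2 and 4 were higher and 4, 3, 3 and 7 lower in mesenchyme, with FAT4 higher by 2.71 to 3.60, PCDH18 higher by 2.37 to 2.95 and PCDH17 lower, at -5.26 to -2.32. PCDH8 was lower in E9fe than in E7fe by 1.24 ± 0.20 (adjusted p = 0.00789), as CDH4 was.

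Of 14 regulators and modifiers of cadherins and NCAM, 7, 8, 7 and 7 were higher and 2, 3, 3 and 3 lower in mesenchyme. Several repressors of CDH1 transcription were among those that were higher. TWIST2 was higher by 9.19, 6.86, 6.16 and 7.83, SNAI1 by 5.92, 5.13, 4.91 and 5.92, and ZEB2 by 3.77, 5.20, 6.10 and 7.39. The repressors SNAI2 and TCF3, named after their values were seen, differed less. SNAI2 passed in E9 feather skin (1.74), with 0.25 to 0.41 in the other skins, and TCF3 passed in none (-0.32 to 0.36). GRHL3, an epithelial transcription factor, was lower by 3.16 to 4.36. TWIST2 is also on the mesenchymal marker list and GRHL3 on the epithelial one, so the directions of these genes are no separate finding. ST8SIA2, which adds polysialic acid to NCAM and is named here after its values were seen, was higher by 2.14 to 2.64. Between regions ZEB2 passed with all arrays in E11se against E9fe, at -2.11 ± 0.39 (adjusted p = 0.0298). The medians of the 6 lists in these 4 comparisons ran from -3.86 for the desmosome genes to 1.94 for the regulators.

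The genes most like each member were taken as the 3 with the highest Pearson correlation over the 20 arrays among 3443 genes with an SD of at least 0.5, as a description, since the arrays share groups and compartments. For CDH1 these were ESRP2 (0.996), DSP (0.995) and EPCAM (0.995), and for CDH11 FERMT2 (0.989), LCP1 (0.985) and ZEB2 (0.984). NCAM1 was followed by PDE3B (0.973), SGCD (0.972) and ADGRL2 (0.971), CDH7 by P2RY13 (0.973), C1QTNF6 (0.954) and ANO3 (0.951), and CDH2 by IQGAP2 (0.954), ITPR1 (0.941) and GPT2 (0.925). CDH13 was followed by PIEZO2 (0.945), SERTM1 (0.94) and GPRC5B (0.928). The values were lower for CDH4, with F10 (0.881), DIO3 (0.879) and GPC2 (0.862), for CDH6, with THBS1 (0.86), NBEA (0.857) and FAM114A1 (0.838), and for CDH20, with ACSS3 (0.725), TNNT2 (0.724) and ZPLD1 (0.721). Among the members themselves the correlation of NCAM1 was 0.926 with CDH11, 0.9 with CDH7, 0.895 with CDH13 and -0.829 with CDH1.

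Second probe sets of the same genes were read as a check. CDH11 had another at a mean of 9.03 that followed the first with a correlation of 0.975, and CDH13 had others at 7.00 and 3.82 with 0.936 and 0.858. The SD over the 20 arrays was smaller on these, at 2.49 against 3.04 on the chosen one for CDH11. For CDH13 it was 1.01 and 0.52 against 1.97, and for NCAM1 0.52 and 0.26 against 1.92. On the CDH13 probe set at 7.00, levels were 7.96 to 8.33 in E11sm and 5.38 to 5.83 in E11se. The fold differences given above are those of the chosen probe sets. The other probe sets of NCAM1 (means 5.57 and 5.07, correlations 0.66 and 0.418), CDH2 (6.13, 0.557), CDH4 (4.86, -0.02) and CDH20 (2.81 to 4.60, 0.152 to 0.661) were dimmer, and that of CDH4 did not follow the first at all. The level of CDH4 thus rests on 1 probe set. CDH1, CDH6 and CDH7 have only 1 probe set each, so taking the mean of all probe sets leaves their levels as they were and is no check on them. In the gene order of the chicken assembly GRCg7b, CDH20, CDH6, CDH7 and CDH2 lie on chromosome 2 and CDH11, CDH13 and CDH1 on chromosome 11, with CDH4 on chromosome 20 and NCAM1 on chromosome 24. CDH20 and CDH6 have 3 coding genes between them, CDH11 and CDH13 have 29, and CDH13 and CDH1 have 73. The 3 cadherins of chromosome 11 did not all share a pattern, with CDH1 lower and CDH11 higher in mesenchyme in all 4 skins and CDH13 higher in the 2 scale skins. Over the 20 arrays CDH11 and CDH13 had a correlation of 0.793, and CDH1 had -0.909 with CDH11 and -0.603 with CDH13.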

How the data were processed

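Total RNA was hybridised to 20 Affymetrix chicken arrays. The deposited values are log2 levels that the authors computed by RMA (background correction, quantile normalisation and summary of probes into probe sets) with affy, and no further scaling was applied. RMA pulls low levels together, so differences of dim genes are understated. The number of arrays limits the precision. The 38535 probe sets include 96 controls, which were dropped, and 27168 of the rest carry 1 symbol in the array annotation, 177 several and 11094 none. The labels gave the groups, and the methods give other array numbers for some of them. Every column was used.

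Differences were fitted with limma 3.58.1 in R 4.3.3 (lmFit and eBayes, 1 mean per group over 8 groups), with Benjamini-Hochberg adjustment over 38439 probe sets in each comparison and a threshold of 0.05. Errors are SE. The members, gene lists and tests were chosen with earlier results of these data known. Named are all members, their 3 most correlated genes and, per list, up to 3 genes each way with the largest difference that passed. No source says how many embryos an array stands for, and p-values measure only the spread between these arrays, part of which may be technical.

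Same-numbered arrays deviated together (correlation over all probe sets above 0.1 in every pair) in the 4 comparisons with 3 pairs, at 0.209 to 0.707. In the comparisons with 2 pairs the correlation ran from -0.394 (E11se against E9se) to 0.405 (E9se against E7fe). It was 0.197 in E9sm against E9se, and negative in E7fm against E7fe (-0.374) and E9sm against E7fm (-0.333), among others. The replicate numbers are those of the titles, and no source says that they mark shared embryos. Alternatives were a replicate block, arrays centred on a common median, dim probe sets left out, the mean of all probe sets of a gene, a fit to the compared groups alone, each array left out, and the 2 doubted arrays left out. Genes and neighbours were matched by symbol to RefSeq's GRCg7b table.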

Additional observations from a re-analysis of the deposited data

Results flagged for a closer look

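For some genes the scale minus feather difference was not the same in the 2 compartments, or the mesenchyme minus epithelium difference not the same in the 2 feather stages, by a test of the difference itself. In undifferentiated skin the scale minus feather difference was higher in mesenchyme than in epithelium by 3.29 ± 0.44 for NCAM1 (limma, adjusted p = 0.00174), by 2.82 ± 0.46 for CDH4 (adjusted p = 0.00852) and by 4.41 ± 0.82 for CDH13 (adjusted p = 0.0238). In differentiated skin it was higher by 4.25 ± 0.67 for CDH13 (adjusted p = 0.0226). The CDH4 call and both CDH13 calls were lost when some single arrays were left out, whereas that of NCAM1 was kept under every alternative. The CDH13 call in differentiated skin was also lost in the mean of all probe sets and in a fit to those groups alone. All CDH4 values rest on 1 probe set. The mesenchyme minus epithelium difference of CDH4 was higher in E9 than in E7 feather skin by 3.59 ± 0.42 (adjusted p = 0.000459), in a test added after the values were seen. The like test between the scale stages, added in the same way, passed for none of the members. Groups of 2 or 3 arrays are too small for a test of single outlying arrays.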

How the results depend on the processing

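Of 49 pairs of gene and comparison that passed with all arrays or without the 2 doubted ones, 31 passed in both fits. The other 18 passed only without the doubted arrays. Leaving these arrays out is itself an alternative, and the 18 count as changed by definition. Under every alternative 21 pairs kept their direction and their call. All were calls of mesenchyme against epithelium, except the NCAM1 test between compartments of undifferentiated skin. No single call of scale against feather skin or between stages was among them. Centring the arrays changed none of the 49. Another background correction was not run, since it needs the raw intensities.

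Without E9fe replicate 1 and E9fm replicate 1 the number of members called was 3 in E9se against E7fe, 2 in E11se against E9fe, 2 in E11sm against E9fm, 2 in E9se against E9fe, 3 in E9sm against E9fm, 1 in E9fm against E7fm, 1 in E11se against E9se and 7 over the 4 planned differences of differences, where all arrays gave 1, 1, 0, 0, 0, 0, 0 and 4. The share of all probe sets that passed rose too in each of these, as from 0% to 2.87% in E9sm against E9fm. In the test between compartments of differentiated skin it rose from 0.0702% to 2.27%. In E9se against E7fe and E11se against E9se, as in E9sm against E7fm, neither group holds a doubted array. There the differences were the same in both fits, while the SE, estimated over all groups, was not. In a fit to the compared groups alone the number of members called was 8 in E9sm against E9se (14.8% of all probe sets), 2 in E9se against E7fe (1.65%), 0 in E11se against E9fe (0.0078%) and 0 in E9fe against E7fe (0.0859%), where all groups gave 5, 1, 1 and 1. With dim probe sets left out it was 2 in E9se against E7fe (1.55%). The replicate block gave 8 in E9sm against E9se (15.4%), with CDH2 (0.68), CDH4 (0.89) and CDH6 (0.92) added, and made the change of the epithelial CDH4 difference between stages pass (2.12, adjusted p = 0.0291). Beside these and the CDH2 calls of the report it changed no other call. Exchanging the E7fm numbers in the block, a pairing chosen after the data were seen, changed 0 of the 9 calls it bears on. In the mean of all probe sets, 1 test of CDH13 was lost, that of its scale minus feather difference between compartments of differentiated skin (2.31, adjusted p = 0.0576). It was also lost in a fit to those groups alone (adjusted p = 0.096). CDH1 passed in E9sm against E7fm in such a fit (adjusted p = 0.0465).

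Leaving out each array in turn gave 5 to 6 calls in E7fm against E7fe, 5 to 6 in E9fm against E9fe, 5 to 5 in E9sm against E9se, 6 to 7 in E11sm against E11se, 0 to 1 in E9se against E7fe, 0 to 2 in E11se against E9fe, 0 to 1 in E9sm against E7fm, 0 to 2 in E11sm against E9fm, 0 to 1 in E9se against E9fe, 0 to 3 in E9sm against E9fm, 1 to 1 in E9fe against E7fe, 0 to 1 in E9fm against E7fm, and 2 to 6 over the differences of differences. The share of all probe sets was not set beside these ranges, so they are not read as a result about the members. That share can move with the arrays left out, as given above for the 2 doubted ones. CDH1 changed sign in 3 results. Leaving out single arrays gave -0.10 (E9fm replicate 2) to 2.21 (E9fm replicate 1) in E11sm against E9fm. In E9sm against E9fm it was -0.12 with the replicate block, -0.74 without E9fm replicate 2, -0.53 without E9fm replicate 3, -0.01 without E9sm replicate 1 and 1.57 without E9fm replicate 1. The third result was the scale minus feather difference of CDH1 in mesenchyme less that in epithelium of differentiated skin. It was -0.24 without E9fm replicate 2, -0.03 without E9fm replicate 3 and 2.07 without E9fm replicate 1. The cause was not tested.

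A lone array left in a group was assumed to vary like the other groups. CDH6, CDH7 and CDH20 were dim in every group, and RMA understates differences at such levels. Dim group means were also those of CDH4 in E11se and E9fe and of NCAM1 in E11se and E9se. The same held for CDH13 in E11se and E9se and for CDH1 in E7fm.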
